A study of Nothobranchius furzeri with 16 samples.

Results

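The genes of the synaptic vesicle and of the release machinery were examined in ribosome footprints of killifish brain. Members were taken by symbol, as all symbols that start with SYT, STX, VAMP, CPLX, SNAP2, SV2, RAB3, SYNGR, RIMS or UNC13, together with SYN1, SYN2, SYN3, SYP, NSF, BSN and PCLO and their copies. This rule, which uses no measured value, found 171 of the 28494 symbols in the footprint table. Symbols such as VAMP2(3of3) name single copies of a gene, and how reads that fit more than 1 copy were divided makes the reads of a given copy uncertain. The rule also takes in RAB30 to RAB39, 15 symbols of other RAB proteins, most of which are not known for vesicle release.

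Whole brains of male Nothobranchius furzeri, a short-lived annual fish, strain MZM-04/10p, were compared at 26 weeks (old) and at 6 weeks (young). The labels name no treatment and no genetic change. Footprints were made with ART-seq, which sequences the RNA stretches that ribosomes shield from nuclease, in 4 old and 4 young libraries, and ribosomal RNA was not removed. RNA sequencing was available from 4 other old and 4 other young libraries. Old RNA samples bear the number 22 in their titles, but 26 weeks as their age label, which was followed. No label ties a library to a fish, and p-values cover only the spread between these libraries, which may be technical.

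Neurotransmitter release starts when the vesicle protein VAMP (synaptobrevin) zips together with syntaxin and SNAP25 of the plasma membrane into the SNARE complex. Syntaxin-binding proteins and UNC13 proteins prepare this complex, complexins clamp it, synaptotagmins trigger fusion upon calcium entry, and NSF takes the spent complex apart. Synapsins tether the vesicle reserve, RAB3 guides vesicles to the active zone, and RIMS, bassoon (BSN) and piccolo (PCLO) build that zone. In brain these proteins are typical of neurons.

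The footprint values were deposited as FPKM, and the steps between low values allowed whole reads to be recovered for 6411 of the 6472 symbols above 0. The other 61 symbols held 95.3% of TPM on average, so recovered reads are only a part of each library. Recovered reads were few and unequal. The old libraries held 4163, 3126, 3604 and 1880 recovered reads and the young ones 2165, 998, 872 and 329. They do not follow total depth throughout. By the size of the FPKM steps, old replicate 4 had 3.035 times the mapped fragments of old replicate 1, but fewer recovered reads. All values below are recovered reads, shares of them, or TPM (FPKM rescaled to sum to 1000000 in a library). After this rescaling 1 read was worth 131 times more TPM in young replicate 4 than in old replicate 4. Of the recovered reads, neuron markers took 0.472% to 1.38% in old and 0.601% to 1.22% in young libraries, with reads on 16 of 21 marker symbols. The neuron markers SNAP25 and SYT1 are themselves members. Skeletal muscle markers (13 of 42 symbols with reads, 10 reads in old and 16 in young) took 0.0278% to 0.120% in old and 0% to 0.803% in young libraries. Astroglia markers took 0.360% to 0.992% in old and 0% to 0.917% in young libraries. Oligodendrocyte and myelin markers (7 of 24 symbols with reads, 60 reads in old and 32 in young) took 0.266% to 0.704% in old and 0.573% to 2.13% in young libraries, a higher mean in young. The myelin gene PLP1B was above 0 but gave no whole reads, and is left out of these reads and shares. Its limma log2 fold change, old over young, was 1.38 (adjusted p = 0.629). Of the 7 symbols of this list that limma tested, 4 were above 0 and 3 below. Microglia markers had 3 reads at each age. The part of these markers in the results below was not tested. None of the 24 retina and photoreceptor symbols was above 0.

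Sparse but broad coverage was found for the vesicle genes. Of the 171 members, 67 (39.2%) were above 0 in at least 1 library, against 22.7% of all symbols, and 104 were listed at 0 throughout. All 67 gave whole reads, 403 in total, with 308 in old and 95 in young libraries. Most members rested on very few reads, as 27 had a single read, 13 had 2 to 4, 17 had 5 to 9 and 10 had at least 10. The 3 most covered members, VAMP2(3of3), CPLX3(2of2) and SV2A(2of2), held 30.3% of the member reads. For a member listed at 0, 3 reads over the pooled total set the limit, which is 0.0235% of recovered reads in old and 0.0687% in young libraries.

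**Figure D1:**
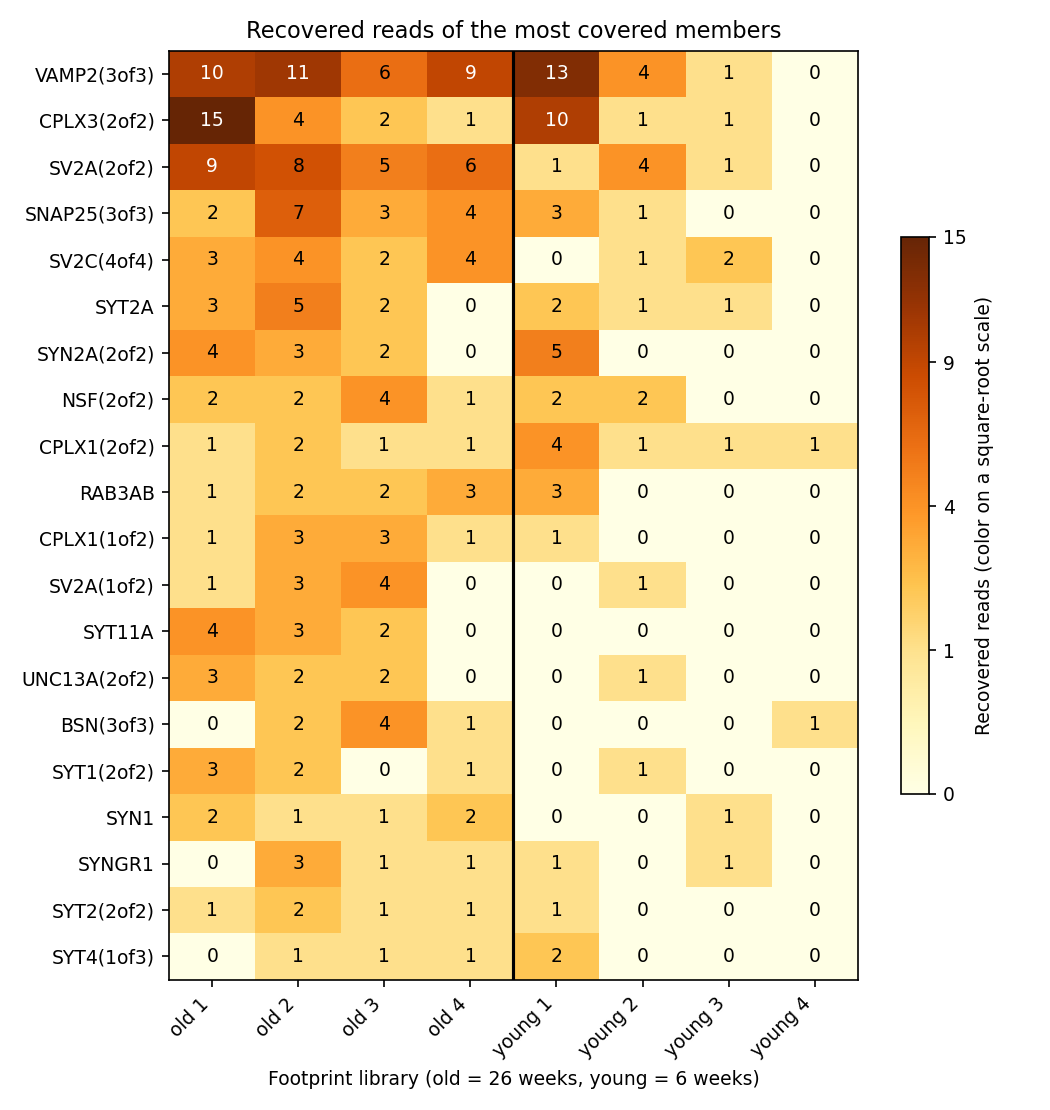
Recovered reads (number in each cell, color on a square-root scale) of 20 members among those with the most reads or above 0 in at least 4 libraries, in 4 old (left) and 4 young (right) footprint libraries. VAMP2(3of3) reached 6 to 11 reads in old and 0 to 13 in young libraries, and most other cells hold 0 to 4 reads.

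Among the SNARE proteins, VAMP2(3of3) carried 54 of the 56 reads of the VAMP family. It had 10, 11, 6 and 9 reads in old libraries and 13, 4, 1 and 0 in young libraries. Both ages overlapped, and its pooled share was 0.282% in old and 0.412% in young libraries, an old-over-young ratio of 0.683 (exact 95% interval 0.378 to 1.28, counting error only). VAMP7 and VAMP8(2of2), which act in endosomal and lysosomal traffic and in secretory cells, had 1 read each. SNAP25(3of3) had 2, 7, 3 and 4 reads in old libraries and 3, 1, 0 and 0 in young libraries, a ratio of 1.37 (0.441 to 5.62). A further copy, SNAP25(1of3), had 3 reads. The libraries of either age again overlapped for both copies.

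Syntaxins were less covered than their SNARE partners, with 16 reads on 5 of 22 symbols. STX1A(2of2) and STX12, an endosomal syntaxin, had 3 reads each. Per length, VAMP2(3of3) and SNAP25(3of3) were at similar levels. VAMP2(3of3) had 49.5, 74.4, 43.3 and 8.59 TPM in old libraries and 79.7, 66.0, 16.1 and 0 TPM in young libraries. SNAP25(3of3) had 25.5, 122, 55.8 and 9.83 TPM in old libraries and 47.4, 42.5, 0 and 0 TPM in young libraries. Within each of these genes the libraries spread more widely than the genes differed.

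The partners that prepare and recycle SNARE complexes had 23 reads (syntaxin-binding proteins) and 13 reads (NSF). STXBP5A(2of2) and STXBP5, tomosyns that compete with VAMP for syntaxin, had 4 and 3 reads, all of them in old libraries. NSF(2of2) had 2, 2, 4 and 1 reads in old libraries and 2, 2, 0 and 0 in young libraries, a ratio of 0.769 (0.215 to 3.42). Its other copy was listed at 0.

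Complexins had 58 reads on 4 of 6 symbols. CPLX3(2of2), a complexin known from retinal ribbon synapses in the mouse, had 15, 4, 2 and 1 reads in old libraries and 10, 1, 1 and 0 in young libraries. Thus 25 of its 34 reads (73.5%) fell into the replicate 1 libraries of both ages, which held 36.9% of all recovered reads and 34.7% of the reads of the other members. Retina markers were at 0 in these libraries, as in all others, and it was not tested what set the replicate 1 libraries apart. The ratio between the ages was 0.626 (0.297 to 1.39).

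CPLX1, the complexin of fast neuronal release, was covered on both copies. CPLX1(2of2) was the only member above 0 in all 8 libraries, with 1, 2, 1 and 1 reads in old libraries and 4, 1, 1 and 1 in young libraries. It was also the only 1 of 58 tested members whose ages did not overlap in TPM, with 6.57, 17.9, 9.58 and 1.27 TPM in old libraries and 32.5, 21.9, 21.4 and 165 TPM in young libraries. Of all tested genes, 1.04% did not overlap. Its highest value was in young replicate 4. The values of old replicates 1, 3 and 4 and of young replicates 2, 3 and 4 came from 1 read each. Between these libraries they differ only by the TPM that 1 read was worth. The ratio of pooled shares was 0.244 (0.0611 to 0.893), and the limma log2 fold change was -2.42 with a standard error of 2.10 (adjusted p = 0.510, n = 4 per age). The second copy ran the other way, as CPLX1(1of2) had 1, 3, 3 and 1 reads in old libraries and 1, 0, 0 and 0 in young libraries (limma log2 fold change 4.92, standard error 2.09, adjusted p = 0.510). In old replicate 1, where each copy had 1 read, that read came to 6.57 TPM on CPLX1(2of2) and 65.2 TPM on CPLX1(1of2). How reads that fit both copies were divided was not tested. Together they had 13 reads in old and 8 in young libraries.

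Synaptotagmins, the calcium sensors, had 55 reads on 10 of 26 symbols, with 45 in old and 10 in young libraries. SYT2A had 3, 5, 2 and 0 reads in old libraries and 2, 1, 1 and 0 in young libraries. SYT1(2of2), the principal sensor of forebrain synapses in mammals, had 3, 2, 0 and 1 reads in old libraries and 0, 1, 0 and 0 in young libraries. SYT2(2of2) had 1, 2, 1 and 1 reads in old libraries and 1, 0, 0 and 0 in young libraries, and SYT4(1of3) had 3 reads in old and 2 in young libraries. SYT6A(3of3) had a single read, in a young library. SYT11A, which does not bind calcium in mammals, had 4, 3, 2 and 0 reads in old libraries. SYT3(1of3), a sensor of high calcium affinity, had 2, 1, 3 and 0 reads in old libraries. SYT11A and SYT3(1of3) were listed at 0 in all young libraries, where the limit of 3 reads is above their pooled share in old libraries for SYT3(1of3) and just under it for SYT11A. The 5 synaptotagmin-like (SYTL) symbols were at 0 in every library.

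Vesicle membrane proteins held 73 reads, the most of any role. SV2A(2of2), a transporter-like protein of synaptic vesicles, had 9, 8, 5 and 6 reads in old libraries and 1, 4, 1 and 0 in young libraries, a ratio of 1.59 (0.648 to 4.71). Its other copy SV2A(1of2) had 1, 3, 4 and 0 reads in old libraries and 0, 1, 0 and 0 in young libraries, a ratio of 2.73 (0.366 to 121). SV2C(4of4) had 3, 4, 2 and 4 reads in old libraries and 0, 1, 2 and 0 in young libraries, a ratio of 1.48 (0.407 to 8.10). The intervals of all 3 include 1. The synaptophysin SYPB, an abundant vesicle protein in mammals, had 1, 1, 3 and 0 reads in old libraries and none in young ones. Its pooled share in old libraries, 0.0391%, is under the limit of 3 reads in young libraries, 0.0687%. SYNGR1 (synaptogyrin) had 5 reads in old and 2 in young libraries. Synapsins had 24 reads. SYN2A(2of2) had 4, 3, 2 and 0 reads in old libraries and 5, 0, 0 and 0 in young libraries, and SYN1 had 2, 1, 1 and 2 reads in old libraries and 0, 0, 1 and 0 in young libraries. SYN3(3of5) had 1 read, in a young library.

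RAB3 and its regulators had 17 reads, of which RAB3AB, a copy of the main vesicle RAB, took 11. It had 1, 2, 2 and 3 reads in old libraries and 3, 0, 0 and 0 in young libraries. RAB3C(1of2), a relative of RAB3A, had 3 reads, all in old libraries, and the copy RAB3AA had 1, in a young library. The active zone genes, which include very long ones, had 36 reads on 14 of 36 symbols, with 32 in old and 4 in young libraries. UNC13A(2of2), the vesicle priming factor Munc13, had 3, 2, 2 and 0 reads in old libraries and 0, 1, 0 and 0 in young libraries. BSN(3of3) had 0, 2, 4 and 1 reads in old libraries and 0, 0, 0 and 1 in young libraries. PCLOB had 4, 0, 2 and 1 reads in old libraries and none in young ones. Because the gene is long, these reads came to 4.33, 0, 3.16 and 0.209 TPM, so that PCLOB failed the filter on the mean and was not tested. PCLOA(2of3) had 1 read, in a young library. RIMS symbols had 1 or 2 reads each where they were above 0. The RAB30 to RAB39 symbols had 9 reads, 4 of them on RAB35(2of2).

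Reads were concentrated on 1 copy of most genes. Of 46 genes with several copies among the members, 17 had at least 5 reads, and in 10 of these all reads lay on 1 copy. VAMP2 (54 reads), CPLX3 (34), SYN2A (14), NSF (13), UNC13A (8) and SYT1 (7) were of this kind. SNAP25 had 87.0% of 23 reads on its leading copy, SV2A 79.1% of 43 and SV2C 94.1% of 17. CPLX1, with 57.1% of 21 reads on the leading copy, was more evenly divided. The authors' estimation assigns reads that match several copies, and its part in this pattern was not tested.

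The comparison of the ages asked whether ribosome occupancy of the vesicle genes differed between old and young brain. As a share of recovered reads, the members took 2.23%, 2.82%, 2.14% and 2.66% in old libraries and 2.77%, 2.10%, 1.26% and 0.912% in young libraries. The means were 2.46 ± 0.327% in old and 1.76 ± 0.838% in young libraries (SD, n = 4 per age). The ages overlapped, the difference was smaller than the spread between young libraries, and the 2 lowest shares came from the 2 shallowest libraries. Of TPM over all genes, the members took 0.0960 ± 0.0615% in old and 0.0541 ± 0.0177% in young libraries (mean and SD). Pooled, 308 of 12773 reads in old libraries (2.41%, exact 95% interval 2.15% to 2.69%) stood against 95 of 4364 in young libraries (2.18%, 1.76% to 2.65%). The ratio was 1.11 (0.877 to 1.41). Whether a difference in such shares in whole brain stems from fewer cells of a type or from less RNA per cell cannot be told apart.

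**Figure D2:**
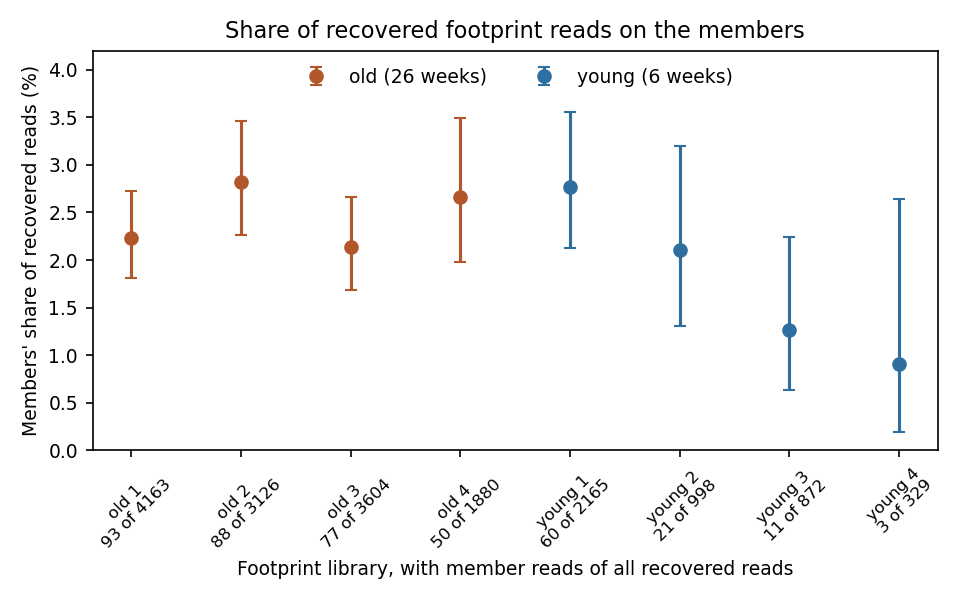
Share of recovered reads on the 171 members (%, points) with exact 95% Clopper-Pearson intervals (bars) in the 4 old libraries on the left and the 4 young libraries on the right. The old libraries lie between 2.14% and 2.82% and the young ones between 0.912% and 2.77%, with the widest interval in young replicate 4, where 3 of 329 reads fell on members.

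By role, none of the 12 roles with reads had a pooled ratio whose counting interval left out 1. The active zone genes were at 0.251% in old and 0.0917% in young libraries (ratio 2.73, 0.969 to 10.6). Vesicle membrane proteins were at 0.478% in old and 0.275% in young libraries (1.74, 0.926 to 3.54), and synaptotagmins at 0.352% in old and 0.229% in young libraries (1.54, 0.764 to 3.42). By library, vesicle membrane proteins took 0.360%, 0.640%, 0.416% and 0.585% in old and 0.0924%, 0.601%, 0.459% and 0% in young libraries. The ages thus overlapped. Complexins were at 0.290% in old and 0.481% in young libraries (0.602, 0.343 to 1.08). VAMP symbols were at 0.298% in old and 0.412% in young libraries (0.721, 0.402 to 1.34). Their means over libraries ran the other way, at 0.325 ± 0.146% in old and 0.279 ± 0.273% in young libraries (SD, n = 4 per age). Of the 29 members above 0 at both ages, 12 had a ratio above 1 and 17 (58.6%) below 1, against 74.2% of the 1539 genes above 0 at both ages. A gene enters this count only with a read in the shallower young libraries, which favours ratios below 1, so that no direction is read from it. The interval left out 1 in 1 of the 29 (3.45%), CPLX1(2of2), against 2.21% of the same genes.

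**Figure D3:**
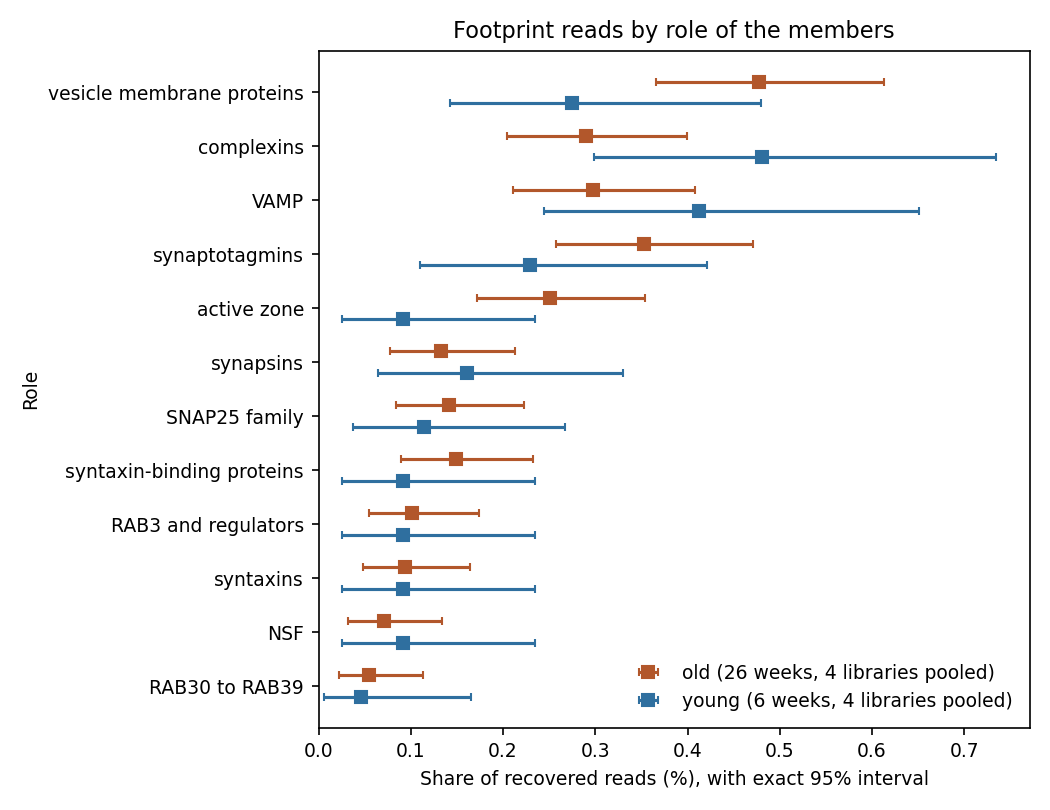
Share of recovered reads (%, squares) by role of the members with exact 95% intervals (bars), for the 4 old libraries pooled (upper of each pair) and the 4 young libraries pooled (lower). The intervals of both ages overlap in every role, from vesicle membrane proteins (0.478% in old, 0.275% in young) to RAB30 to RAB39 (0.0548% in old, 0.0458% in young).

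In the model fitted across all genes (limma on log2(TPM + 1), mean of at least 1 TPM), 58 members were among 5200 genes tested. No member was called at an adjusted p under 0.05 (0 of 58, with an adjusted p of 0.510 at the least), nor was any gene (0%). At an unadjusted p under 0.05 there were 4 members (6.90%), all higher in old, against 1.65% of all genes, of which 1.48% were higher in old and 0.173% lower. The 4 members were SYT3(1of3), CPLX1(1of2), SYPB and SYT11A, with log2 fold changes of 5.04, 4.92, 3.95 and 3.29 and standard errors of 1.84, 2.09, 1.71 and 1.63. Of these, 3 were at 0 in all young libraries and the other had 1 young read, so their fold changes rest on the pseudocount. In the other direction the lowest statistic was that of CPLX1(2of2). The 4 members with a read in young libraries only, SYN3(3of5), SYT6A(3of3), PCLOA(2of3) and RAB3AA, had log2 fold changes of -1.46, -1.26, -1.04 and -0.82, each on 1 read and with an adjusted p of 0.510. On simulated data of this depth, with counting error only, the limma test found 0% of 200 genes changed by 2 on the log2 scale.

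Of the 58 members, 51 had a log2 fold change above 0 (87.9%), against 71.6% of all genes tested. Among the 58, 19 had reads in 1 library only. A gene without reads in young libraries passes the filter through old libraries alone and can only be above 0. No direction is therefore read from these percentages. The median was 1.18 for members and 0.95 for all genes. The old libraries held more recovered reads, 12773 against 4364 in young libraries, and the part of depth in this offset was not tested. In all, 34 members were above 0 in old libraries only and 4 in young libraries only, and over all recovered genes these numbers were 3966 and 906. Without the 20 most abundant genes in the TPM total the medians were 2.27 and 1.94, and with a pseudocount of 10 TPM they were 0.38 and 0.29. Among genes above 0 at both ages, the median log2 ratio of mean TPM was 0.31 for 29 members and -0.30 for all genes. For the same 29 members the median ratio of pooled read shares was 0.854, which is in the other direction. These genes enter only with a read in young libraries, and no direction is read from either median.

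On recovered reads, edgeR tested the 10 members with at least 10 reads and called 0, against 3 of 249 genes (1.2%), and DESeq2 called 0 members and 0 genes. At an unadjusted p under 0.05 there were 0 members by either tool, against 11.6% of genes by edgeR and 2.01% by DESeq2. SV2A(2of2) had an edgeR log2 fold change of 1.29 (standard error 0.91, adjusted p = 0.570). VAMP2(3of3) had 0.31 (standard error 0.83, adjusted p = 0.929) and CPLX3(2of2) 0.08 (standard error 0.86, adjusted p = 0.977), the opposite sign of their ratios of pooled shares. The same held for SYT2A (0.38, ratio 0.854), NSF(2of2) (0.25, ratio 0.769) and RAB3AB (0.53, ratio 0.911). CPLX1(2of2) had -1.25 (standard error 0.97, adjusted p = 0.642). On simulated reads of this depth, with counting error only, edgeR found 19.05% of 21 genes changed by 2 on the log2 scale. These 21 were the genes with at least 10 simulated reads among 200 changed genes. The percentage therefore does not give the power at the spread of the real libraries.

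Other genes of the vesicle cycle, not members, were taken as 3 lists. Their raw reads cannot be compared directly between the ages, as old libraries held 12773 recovered reads and young ones 4364. The vesicular transporters, which fill vesicles with transmitter, had 20 reads in old and 7 in young libraries on 6 of 11 symbols, led by SLC32A1(2of2), the GABA and glycine transporter, with 7 reads in old and 2 in young libraries. Docking and priming partners had 54 reads in old and 24 in young libraries on 27 of 78 symbols. Among them NAPB(2of2), a SNAP protein that recruits NSF, had 14 reads in old and 2 in young libraries. The mean share was 0.147 ± 0.0756% in old and 0.129 ± 0.101% in young libraries for the transporters. For the docking and priming partners it was 0.426 ± 0.117% in old and 0.484 ± 0.373% in young libraries. Vesicle recycling genes had 135 reads in old and 52 in young libraries on 30 of 48 symbols. A further 2, the clathrin heavy chain CLTCB and the endocytic adaptor EPN1(2of2), were above 0 but gave no whole reads and are left out of these reads and shares. The mean share of the recycling list was 1.08 ± 0.101% in old and 1.07 ± 0.279% in young libraries (SD, n = 4 per age, for all 3 lists). The clathrin uncoating chaperone HSPA8(4of4) had 45 reads in old and 20 in young libraries, and DNM3(1of2), a dynamin that pinches vesicles off, had 27 in old and 11 in young libraries. By limma 0 of 6, 0 of 25 and 0 of 24 tested symbols of the 3 lists were called.

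RNA was examined to see how transcripts of the same gene families differed between the ages. The count table carries IDs, which were paired with names only through tables of the study that hold a part of all genes, chiefly those that changed most with age in other fish. It is therefore a biased sample of the families. In this way 51 IDs of the module were found, 32 by killifish symbol and 19 by human orthologue only, and 47 were tested. Of the IDs named below, those labelled by human orthologue only are RAB3A, SNAP25, SYT4, STXBP3, RIMS1, RIMS2, SYN2, SYNGR3 (Nfu_g_1_019847), SYN1 (Nfu_g_1_009195) and RAB35 (Nfu_g_1_019316). Which copy in the footprint table each of them matches is not known. The library kit does not mark strand, so that reads of an antisense gene cannot be told apart. RNA libraries held 9461792 to 13771769 counts.

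With all 8 RNA libraries, edgeR called 0 of the 47 IDs, against 0.34% of 16759 genes (0.167% higher and 0.173% lower in old), and 8 were at an unadjusted p under 0.05 (17.0%, against 15% of all genes). DESeq2 called 2 of 49 (4.08%), both lower in old, against 4.04% of 18520 genes. Among the 2 was STX10 (Nfu_g_1_007043), whose human orthologue in the tables is STX6, with a DESeq2 adjusted p of 0.0367. In edgeR, STX10 had 2.18, 2.71, 1.61 and 1.91 counts per 1000000 (CPM) in old libraries and 3.61, 3.89, 4.09 and 4.62 CPM in young libraries, without overlap, a trait of 2 of the 47 IDs (4.26%) and 9.89% of all genes (log2 fold change -0.94 and a standard error of 0.26, at an adjusted p of 0.170). In some IDs the replicate 1 libraries of both ages stood apart from the others. SYN2 (Nfu_g_1_021376), for instance, had 188 CPM in old and 185 CPM in young replicate 1. Replicates 2 to 4 of SYN2 had 531, 595 and 507 CPM in old and 380, 384 and 350 CPM in young libraries. In SNAP25 (Nfu_g_1_017443) only young replicate 1 stood apart, at 127 CPM against 415, 554 and 504 CPM in young replicates 2 to 4. Its old replicate 1 had 209 CPM, within the range of 357, 138 and 291 CPM in old replicates 2 to 4. For STX10 too, old replicate 1 lay within the range of the other old libraries. With a term for replicate 1, edgeR called 12 of the 47 IDs (25.5%, against 25% of all genes), and without young replicate 1 it called 5 (10.6%, against 3.75%). Results are also given within replicates 2 to 4, with 3 libraries per age.

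Within replicates 2 to 4, 22 of the 47 IDs were called (46.8%), against 31.9% of 16614 genes. Of these, 14 were lower in old (29.8%, against 15.9% of all genes) and 8 higher in old (17.0%, against 16% of all genes). The IDs were named through tables that hold chiefly genes that changed with age in other fish. The part of this selection in the higher shares was not tested. The number called was 12 of 47 without young replicate 3, against 2558 of 16999 genes. Without young replicate 4 it was 11 of 47, against 2106 of 16850 genes. Of the 22 IDs, 11 were called in each of the 6 fits that left out 1 library, among them RAB3A, SYPB, RAB35 (Nfu_g_1_008954), RAB3C, CPLX1(1of2), SYT4, STXBP4, STXBP3 and SYN2. The same share over all genes was not counted, so this number is not read as particular to the module. The median log2 fold change was -0.17 for the IDs and 0.00 for all genes, and upper quartile scaling moved the median of all genes by -0.07 and called 22 IDs, 21 of them the same, each with an unchanged sign. The replicate 1 pair, 1 library per age, went the same way for 5 of the 14 lower and 4 of the 8 higher IDs.

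**Figure D4:**
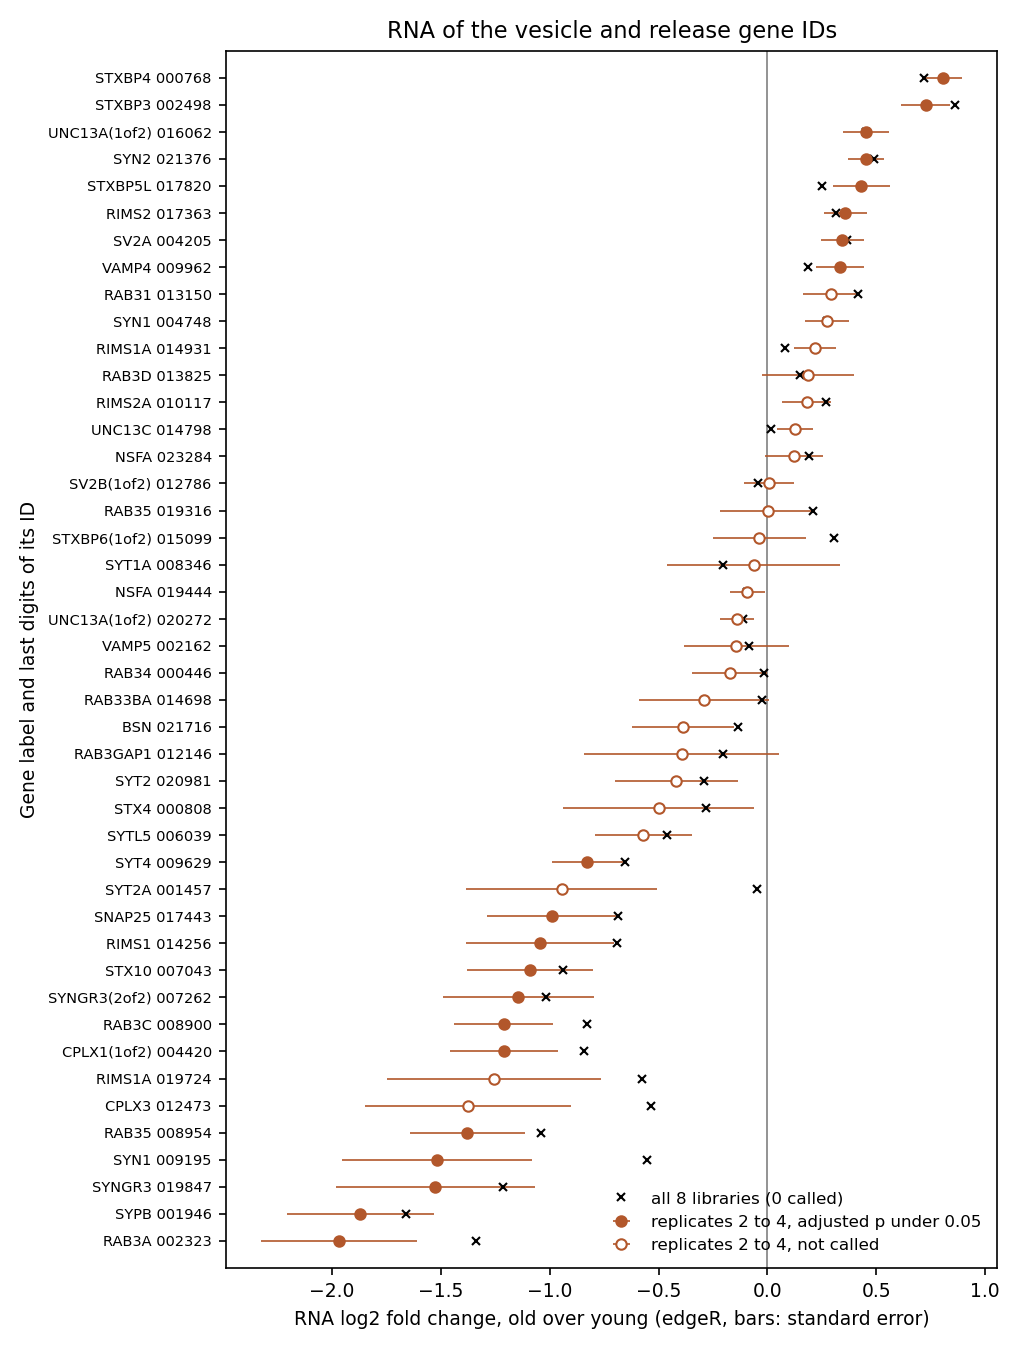
RNA log2 fold change, old over young, of 44 of the 47 IDs (horizontal axis) in replicates 2 to 4 (circles, filled where the edgeR adjusted p was under 0.05, bars for the standard error) and with all 8 libraries (crosses). The filled circles comprise 12 IDs lower in old, down to -1.97 for RAB3A, and 8 IDs higher in old, up to 0.80 for STXBP4.

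The IDs lower in old included vesicle and fusion proteins. RAB3A (Nfu_g_1_002323) had 4.74, 1.86 and 3.65 CPM in old and 8.49, 15.1 and 14.7 CPM in young replicates 2 to 4 (log2 fold change -1.97 with a standard error of 0.36 and an edgeR adjusted p of 0.00449). The replicate 1 libraries had 7.03 CPM in old and 5.73 CPM in young, in the other direction. SYPB (Nfu_g_1_001946), the synaptophysin with footprints in old libraries only, had 15.3, 5.34 and 12.5 CPM in old and 27.7, 45.7 and 42.2 CPM in young replicates 2 to 4 (-1.87, standard error 0.34, adjusted p = 0.00447). In replicate 1 it had 4.86 CPM in old and 4.95 CPM in young. In RNA, RAB3A and SYPB were among the 27 of 47 IDs (57.4%) that did not overlap between the ages within replicates 2 to 4, against 48% of all genes. Both overlapped with all libraries.

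Further IDs lower in old within replicates 2 to 4 were RAB3C (-1.21), RAB35 (Nfu_g_1_008954, -1.38), CPLX1(1of2) (-1.21), SYNGR3 (Nfu_g_1_019847, -1.53) and STX10 (-1.09). In the replicate 1 pair, STX10 was also lower in old, but the others were higher in old. With all 8 libraries, edgeR called none of the IDs of this paragraph. Chosen after their values were seen, SNAP25 (-0.99, adjusted p = 0.0326, and up to 0.107 with 1 library left out) and SYT4 (-0.83, adjusted p = 0.00621) were lower as well. RIMS1 (Nfu_g_1_014256), SYNGR3(2of2) and SYN1 (Nfu_g_1_009195) were lower too, with -1.05, -1.14 and -1.52 (adjusted p = 0.0413, 0.0324 and 0.0261). In the replicate 1 pair, SNAP25, SYT4 and SYN1 (Nfu_g_1_009195) were higher in old, and RIMS1 and SYNGR3(2of2) were lower. Levels of RIMS1, SYNGR3(2of2) and SYN1 (Nfu_g_1_009195) were low, with means of 5.89, 7.66 and 3.80 CPM in young replicates 2 to 4, and 1.63 CPM for SYNGR3 (Nfu_g_1_019847). Of the 6 fits that left out 1 library, RIMS1 and SYNGR3 (Nfu_g_1_019847) were not called in 5. SYNGR3(2of2), SYN1 (Nfu_g_1_009195) and STX10 were not called in 3.

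The IDs higher in old differed less in size, but they were also at higher levels. The median in young replicates 2 to 4 was 177 CPM for the IDs called higher and 18.5 CPM for those called lower. The part of level in the size and direction of the changes was not tested. STXBP4 (Nfu_g_1_000768), which in mammals binds a syntaxin of glucose transporter traffic, had 119, 130 and 113 CPM in old and 73.6, 58.2 and 62.5 CPM in young replicates 2 to 4 (0.80, standard error 0.09, adjusted p = 0.000615). SYN2 (Nfu_g_1_021376), a synapsin, had 531, 595 and 507 CPM in old and 380, 384 and 350 CPM in young replicates 2 to 4 (0.45, standard error 0.08, adjusted p = 0.00449). UNC13A(1of2) (Nfu_g_1_016062) had 165, 222 and 171 CPM in old and 119, 134 and 126 CPM in young replicates 2 to 4 (0.45, standard error 0.11, adjusted p = 0.0122, and 0.0607 without young replicate 4), while a second ID of the same symbol, Nfu_g_1_020272, had -0.14 (adjusted p = 0.186). STXBP3 (0.73), RIMS2 (Nfu_g_1_017363, 0.36), SV2A (0.34), STXBP5L (0.43) and VAMP4 (Nfu_g_1_009962, 0.34, whose human orthologue in the tables is VAMP1) were the others within replicates 2 to 4. In the replicate 1 pair, STXBP3 was higher in old, and RIMS2, SV2A, STXBP5L and VAMP4 were lower. Of the 6 fits that left out 1 library, VAMP4 was not called in 5, RIMS2 and STXBP5L in 3 and SV2A in 2. RAB31 (0.29, adjusted p = 0.105) and SYN1 (Nfu_g_1_004748, 0.27, adjusted p = 0.0653, whose human orthologue in the tables is SYN3) were not called.

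**Figure D5:**
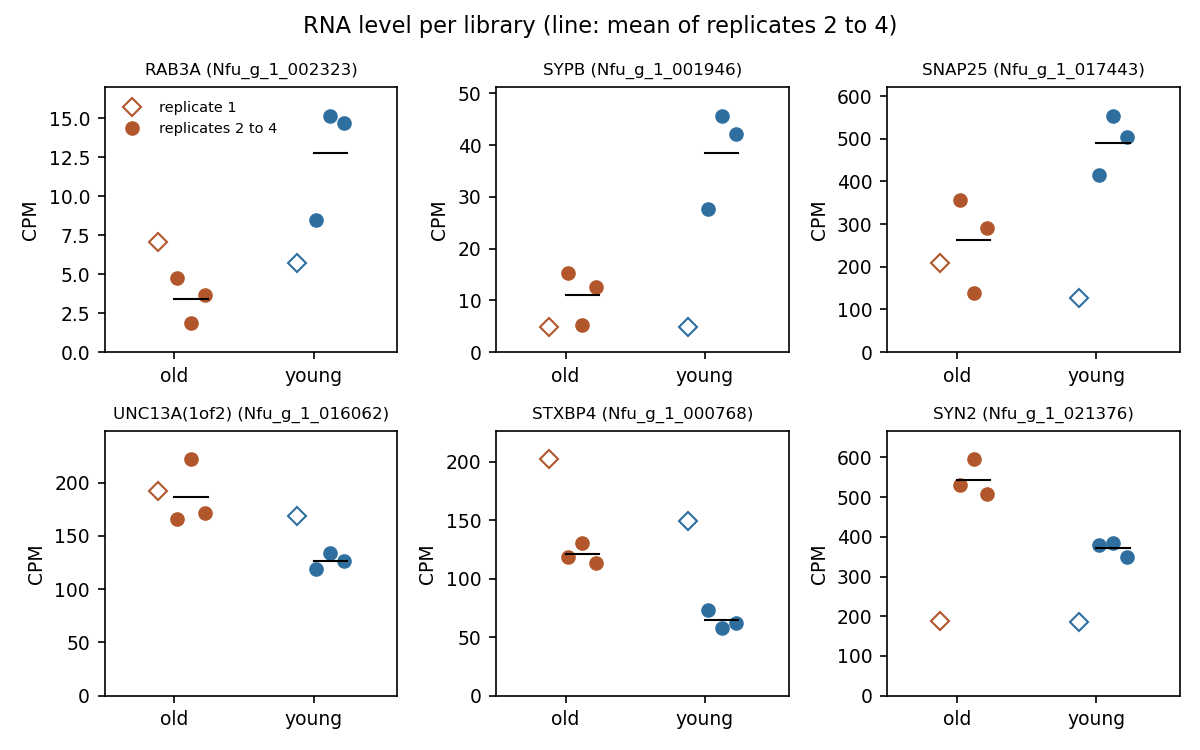
RNA level (CPM) of 6 IDs in old (left) and young (right) libraries, with replicate 1 as open diamonds, replicates 2 to 4 as circles and their mean as a line. RAB3A, SYPB and SNAP25 were lower and UNC13A(1of2), STXBP4 and SYN2 higher in old replicates 2 to 4. In SYN2 replicate 1 lies apart at both ages (188 CPM in old, 185 CPM in young). In SNAP25 it lies apart in young (127 CPM), but within the range of the other libraries in old (209 CPM).

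By role, the calls within replicates 2 to 4 were spread over the module. Of 5 vesicle membrane IDs 3 were lower and 1 was higher in old, of 3 syntaxin IDs 2 were lower, of 6 syntaxin-binding IDs 1 was lower and 3 were higher, and of 9 active zone IDs 1 was lower and 2 were higher. Both NSF IDs and the 1 synaptotagmin-like ID were not called. Footprints and RNA came from different libraries, and a difference between both readouts was not tested.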

How the data were processed

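Footprint values were deposited as FPKM per gene symbol, which the authors estimated with RSEM 1.3.1 from STAR alignments against the genome build NotFur1. RNA values were deposited as counts per gene, made by the authors with STAR 2.4.1d and featureCounts 1.4.6-p4; their build and strand setting are not given in the sources used here. A deposited RPKM table was not used. Reads were recovered from the FPKM steps with a tolerance of 0.02 of a read, and a gene above 0 in a single library was assigned 1 read wherever its value permitted. Whole reads were found for 6411 of 6472 genes (99.1%), and edgeR on these reads called 3 of 249 genes. On simulated reads 98.6% of genes in at least 2 libraries came back exactly and 88.5% of those in 1 library. The genes without whole reads hold 95.3% of TPM on average. Footprints were tested with limma 3.58.1 (trend) on log2(TPM + 1), and RNA with edgeR 4.0.16 (TMM, filterByExpr, quasi-likelihood), with Benjamini-Hochberg adjustment over all genes and a threshold of 0.05. The added 1 TPM understates changes of low genes, but libraries at 0 can also enlarge a fold change on this scale. VAMP2(3of3), at 0 in young replicate 4, had mean TPM of 44.0 in old and 40.4 in young libraries, but a limma log2 fold change of 1.03. DESeq2 1.42.0 was an alternative. On simulated RNA counts edgeR found 98.5% of 200 genes changed by 2 on the log2 scale. These counts had the same dispersion for every gene and no shift of the replicate 1 libraries. The percentage therefore does not give the power of the fit to all 8 RNA libraries. Intervals are exact (Clopper-Pearson for shares, conditional binomial for ratios) and cover counting error only, since reads without molecular identifiers are not independent molecules. Named genes are the 15 members with the most reads, the 6 with the largest and the 6 with the lowest moderated statistic, members in at least 4 libraries, core release genes, and the 8 RNA IDs with the lowest p in each direction. Members, lists and rules were chosen with earlier results of these data known. Some genes are not reported by name here, though they count among the members. Sequences of the members were not used here.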

Additional observations from a re-analysis of the deposited data

Results flagged for a closer look

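Of 74 groups of 4 libraries checked for a library far from the others (footprint genes only where at least 3 libraries were above 0), 8 had a gap between 1 library and its neighbour that took most of the group's range, and chance alone gives about 1 in 20 groups. Ratios of gap to range are given. Among footprints, CPLX1(2of2) had 165 TPM in young replicate 4 (0.923), from 1 read. UNC13A(2of2) was at 0 in old replicate 4 (0.910), the library in which 1 read is worth the least TPM. Among RNA, 5 of the 6 cases were replicate 1 libraries. STXBP5L (0.95), VAMP4 (0.924) and STXBP4 (0.830) were highest in young replicate 1, and STXBP3 (0.832) and SYN1 (Nfu_g_1_009195, 0.841) in old replicate 1. RAB3C was lowest in old replicate 3 (0.848).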

How the results depend on the processing

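Members were called in none of the footprint fits (0 with each pseudocount, filter, scaling, left-out library and tool). Genes called in footprints stayed at 0 except with edgeR on recovered reads (3 of 249). The members' median log2 fold change was 2.02 with a pseudocount of 0.1 TPM, 0.38 with 10 TPM, 2.27 without the 20 most abundant genes, 1.48 at a mean of at least 10 TPM, 0.31 as a ratio of group means, and 1.04 to 1.59 with a library left out. The members' share, old minus young, was 0.699 percentage points, 0.0419 as a share of TPM, 0.825 without the 20 most abundant genes, 0.719 without CPLX3(2of2) (chosen after seeing the data), and 0.416 to 1.04 with a library left out. In RNA, 57 genes were called, 28 higher and 29 lower in old (19 and 38 with upper quartile scaling, which moved the median of all genes by -0.12). The counts were 748 with DESeq2, 37 without a filter, 4192 with a term for replicate 1, 5298 in replicates 2 to 4 (5152 there with upper quartile scaling), and 0 to 638 with a library left out of all 8. Of module IDs, 0 were called, but 2 with DESeq2, 12 with the replicate 1 term, 22 in replicates 2 to 4 (also with upper quartile scaling), and 0 to 5 with a library left out, where the 5 came without young replicate 1. Leaving a library out of replicates 2 to 4, alternatives chosen after seeing the data, gave 4850, 5078 and 3884 genes and 23, 19 and 15 IDs without old replicate 2, 3 and 4, and 4835, 2558 and 2106 genes and 21, 12 and 11 IDs without young replicate 2, 3 and 4. With 1 of all 8 libraries left out, the log2 fold change ran from -0.36 to 1.08 for STXBP5L and from -0.33 to 0.89 for VAMP4, both lowest without old replicate 1 and highest without young replicate 1. Same-numbered libraries did not deviate together throughout (r of 0.777, 0.436, 0.00137 and 0.527 in RNA, and -0.00335 to 0.0281 in footprints), so the numbers were not taken to pair samples. With a replicate block, edgeR called 2658 genes and 6 IDs in RNA, and 0 genes and 0 members in footprints, by limma and by edgeR on reads. The causes of these shifts were not tested. Footprint depth limits every gene here: most members rest on under 5 reads.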
